A study of Mus musculus with 64 samples.

Results

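Right and left ventricles of the same hearts were compared after gene replacement at the lower of the vector doses in this series. The animals were mice that model arrhythmogenic right ventricular cardiomyopathy through loss of plakophilin-2 (Pkp2), a desmosomal protein that is often mutated in patients. The members were the RNA sequencing libraries of 8 animals labelled PKP2_m3e13, here AAV_3E13, with 1 library of the right ventricle (RV) and 1 of the left (LV) for each, paired by the animal number in the label. They were 16 of the 64 libraries of the series. All groups were C57BL6 mice with floxed Pkp2 alleles. AAV_3E13 animals also carried a Cre recombinase that tamoxifen activates and the cardiac alpha myosin heavy chain promoter drives, so that Pkp2 was deleted from cardiomyocytes, and they received one dose of 3e+13 vector genomes (vg) per kg of an AAV9 vector with mouse Pkp2. The study describes a cardiac troponin T promoter for its vectors. By label this was 1 week before tamoxifen, although descriptions of the study differ on the timing. The groups that served for reference at the 51-week end point of the study were WT (9 Cre-negative littermates given vehicle), AAV_1E14 (5 knockout animals given 1e+14 vg per kg, by label also 1 week before tamoxifen) and AAV_1E14_2.5wk (6 knockout animals given 1e+14 vg per kg 2.5 weeks after it). Untreated knockouts (cKO, 4 animals given vehicle) were taken down earlier, so age differs between them and the rest. Each library was a piece of ventricle with all its cell types, so a lower level of a cell type's genes can stand for fewer such cells or for less RNA per cell, and these cannot be told apart.

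The ventricles have different origins and loads. The RV and outflow tract form largely from the second heart field and the LV from the first, the RV wall is thin and works against the low pressure of the lungs, and the LV wall is thick and works against that of the body. Desmosomes join cardiomyocytes end to end, together with adherens and gap junctions, and the disease takes its name from the RV, although both ventricles can be affected.

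AAV_3E13 libraries held between 8.44 M and 12.7 M (mega) estimated counts, and 5.81 M to 9.14 M entered the tests after mitochondrially encoded genes were left out. Total counts were higher in RV in 5 of 8 animals (exact two-sided paired permutation test, p = 0.625), and fewer genes had a count in RV, 16672 ± 225 (SD, n = 8) against 17055 ± 158 in LV, which was so in 7 of 8 animals (same exact test, p = 0.0156, adjusted p over 7 library measures = 0.109). The part of the number of genes detected in the results was not tested. In all 8 animals both libraries matched in sex-linked transcripts, 3 pairs with Xist and 5 with Y-linked genes above the other. Ventricular cardiomyocyte markers were abundant throughout: 16 of 16 were tested, and their summed level ran from 121187 to 167025 CPM (counts per M counts used) in RV and from 109864 to 143871 CPM in LV. Atrial markers were low, with a sum of 161 to 486 CPM in RV and 239 to 602 CPM in LV, and the atrial genes Sln and Myl7 averaged 0.16 and 0.988 CPM in RV. These averages rest mostly on PKP2_m3e13_2029, with Sln at 1.28 and Myl7 at 7.44 CPM in RV. In LV, PKP2_m3e13_5759 stood out, at 1.13 and 3.66 CPM. The part of these 2 libraries in the results was not tested. Of 12 skeletal muscle markers, 11 were near 0 (mean under 0.5 CPM) in both ventricles. Hand1, Adipoq of fat cells and the mesothelial gene Upk3b were too low to be tested, at 0.0286, 0.0621 and 0.515 CPM on average in LV.

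The first comparison asked which genes differed between the ventricles of these treated hearts. In AAV_3E13, genes higher in RV included most nuclear genes of oxidative phosphorylation and many of fuel oxidation, and genes higher in LV included most genes of capillary endothelium and some of the interferon and immediate early lists. Of 13235 genes tested, 1565 (11.8%) were higher in RV and 1439 (10.9%) lower (edgeR quasi-likelihood test with the animal as a block, Benjamini-Hochberg adjusted p under 0.05), which is 22.7% called in all. Most differences were small, with a median size of 0.48 on the log2 scale among called genes, and 171 exceeded 2-fold, 44 of them higher and 127 lower in RV. Log2 fold changes are given throughout as RV over LV, so that positive values are higher in RV. The direction was the same in all 8 animals for 1780 of the 3004 called genes, against 1949 of the 13235 tested (14.7%). RV and LV libraries did not overlap for 293 called genes, against 295 of all genes tested (2.23%). A test with the animal as a block favours such genes, so neither count is separate support for the calls.

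**Figure D1:**
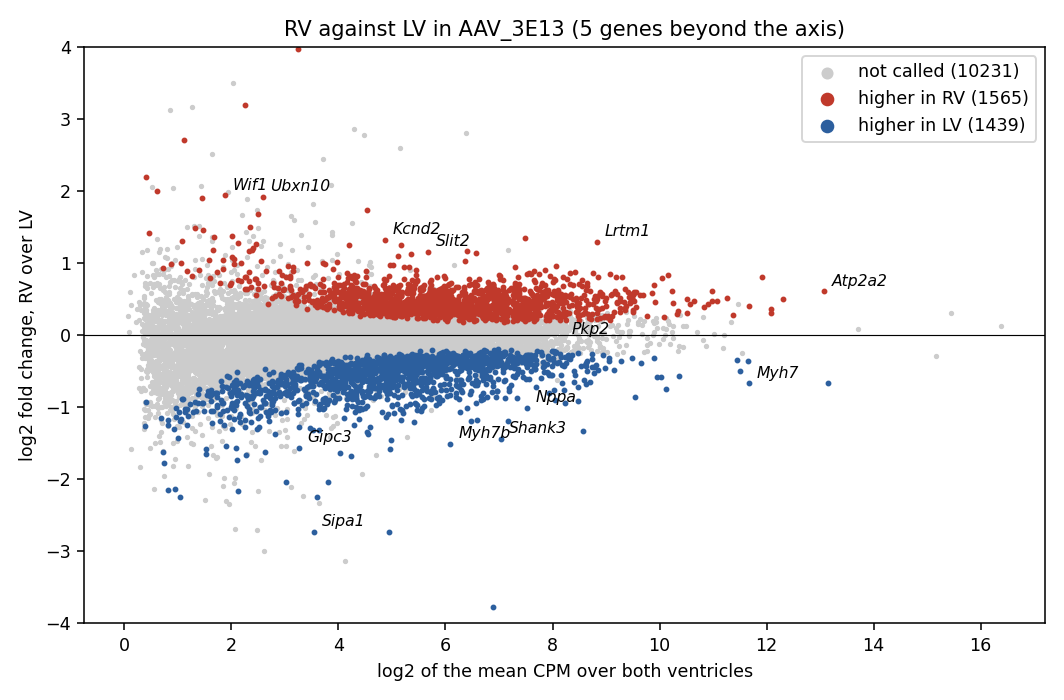
Log2 fold change of RV over LV (vertical axis) against the log2 mean CPM over both ventricles (horizontal axis) for the 13235 genes tested in AAV_3E13. Red points were called higher in RV (1565), blue points higher in LV (1439) and grey points were not called, and 5 genes lie beyond the vertical range of 4.

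Genes higher in RV included an ion channel gene, a guidance ligand gene and a Wnt inhibitor gene. Kcnd2, which encodes a pore subunit of the transient outward potassium current (GRCm39 chr6:21214866-21729804, forward strand), ran from 29.4 to 59.3 CPM in RV (median 39.6) and from 13.1 to 24 CPM in LV (median 15). Every RV library lay above every LV library, and the log2 fold change was 1.32 ± 0.11 (SE, adjusted p = 0.000454). Slit2, a secreted guidance ligand of Robo receptors (GRCm39 chr5:48140480-48465075, forward strand), ran from 49.6 to 105 CPM in RV (median 66.8) and from 20.4 to 44.5 CPM in LV (median 30.8). Its ventricles did not overlap either, and it differed by 1.16 ± 0.10 (SE, adjusted p = 0.000454). Wif1, a secreted Wnt inhibitor, ran from 2.49 to 13.7 CPM in RV (median 5.22) and from 0.277 to 2.53 CPM in LV (median 1.53). It was higher in RV in 8 of 8 animals, which the choice of leading genes required, although the ranges met. The change was 1.94 ± 0.28 (SE, adjusted p = 0.00118). Ubxn10, which encodes a cofactor of the VCP segregase linked to cilia, ran from 5.4 to 12.8 CPM in RV (median 9.72) and from 1.15 to 3.95 CPM in LV (median 2.58), without overlap, and differed by 1.93 ± 0.19 (SE, adjusted p = 0.000454).

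Kcnd2 and Slit2 had positive values in the other groups too, although not all passed the test. The log2 fold changes of Kcnd2 were 0.55 in WT (adjusted p = 0.00598), 1.36 in AAV_1E14 (adjusted p = 0.012), 0.87 in AAV_1E14_2.5wk (adjusted p = 0.208) and 1.54 in cKO (adjusted p = 0.544). Those of Slit2 were 0.84, 1.17, 1.65 and 0.63 in the same order, of which all but cKO passed the edgeR test. Genes called in AAV_3E13, WT and AAV_1E14 alike numbered 28 higher in RV, Kcnd2, Slit2, Ubxn10 and Wif1 among them, and 14 lower, with Myh7.

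Other genes that led towards RV included Lrtm1 (a leucine-rich repeat membrane protein), Tmprss13 (a membrane serine protease), Tnfrsf19 (a TNF receptor family member), Pla2g5 (a secreted phospholipase), Fam134b (an ER-phagy receptor) and the ribosomal pseudogene Rps2-ps10. Lrtm1 ran from 424 to 760.0 CPM in RV (median 675) and from 151 to 379 CPM in LV (median 282), without overlap, and its log2 fold change was 1.30 ± 0.13 (SE, adjusted p = 0.000454), against -0.17 in WT and 0.75 in AAV_1E14. Pla2g5 likewise separated the ventricles, from 18.9 to 39.9 CPM in RV (median 24) and from 4.71 to 14.8 CPM in LV (median 11.5), with a change of 1.26 ± 0.14 (SE, adjusted p = 0.000534). Changes were 1.28 for Tmprss13, 1.27 for Tnfrsf19, 1.25 for Fam134b and 1.21 for Rps2-ps10. RV was above LV in 8 of 8 animals for each, as the choice of these genes required. Reads of a pseudogene such as Rps2-ps10 can be shared with its parent gene, so its level is uncertain, and Fam134b fell to 1.1 CPM in 1 LV library.

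Among the genes that differed most towards LV, Myh7b, Gipc3, Shank3 and Lppr2 separated the ventricles completely. Myh7b, a slow-type myosin heavy chain (GRCm39 chr2:155453096-155476234, forward strand), ran from 18.1 to 61.4 CPM in RV (median 35) and from 72.5 to 125 CPM in LV (median 99.4). The ventricles did not overlap, and the log2 fold change was -1.50 ± 0.17 (SE, adjusted p = 0.000534). Shank3, a scaffold protein best known from synapses (GRCm39 chr15:89383826-89444464, forward strand), ran from 40.1 to 101 CPM in RV (median 71) and from 106 to 289 CPM in LV (median 188) and differed by -1.44 ± 0.20 (SE, adjusted p = 0.00108), also without overlap. Gipc3, a PDZ-domain adaptor, ran from 3.59 to 6.44 CPM in RV (median 4.88) and from 7.2 to 21.8 CPM in LV (median 14.4), a difference of -1.57 ± 0.15 (SE, adjusted p = 0.000454), without overlap. Lppr2, a lipid phosphatase-related protein, ran from 1.47 to 3.22 CPM in RV (median 1.84) and from 4.34 to 9.74 CPM in LV (median 5.6) and differed by -1.56 ± 0.25 (SE, adjusted p = 0.00182), again without overlap. None of these was called in WT in this direction, where the changes were 0.18 for Myh7b, 0.53 for Shank3 (called, higher in RV), 0.26 for Gipc3 and 0.71 for Lppr2.

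The rule that chose the leading genes required the same direction in 8 of 8 animals, so this agreement is no separate support. Others so chosen were Sipa1 (a Rap GTPase-activating protein), Smarcd3 (a BAF chromatin remodelling subunit), Fes (a tyrosine kinase), Erdr1 and Ago1 (an Argonaute protein). N4bp3, Cacna1a (a P/Q-type calcium channel pore) and Clcn1 (the muscle chloride channel) were chosen too, and all of these were higher in LV. Their log2 fold changes were -2.73 for Sipa1, -2.16 for Smarcd3, -1.63 for Fes, -1.53 for Erdr1, -1.45 for Ago1, -1.38 for N4bp3, -1.34 for Cacna1a and -1.31 for Clcn1. Several of these were detected unevenly among libraries of one ventricle. Sipa1 ran from 0 to 16.7 CPM in RV (median 2.64) and from 6.79 to 45 CPM in LV (median 17.5), Ago1 from 0.485 to 51.5 CPM in RV (median 15.7) and from 8.92 to 59.3 CPM in LV (median 52.7), and Fes from 0 to 10.1 CPM in RV (median 3.78) and from 3.52 to 12.9 CPM in LV (median 8.61), so their ranges overlapped and their folds rest on libraries at or near 0. The calls of Fam134b, Smarcd3, Fes and Cacna1a each ended when single animals were left out, and with a correction for effective transcript length Cacna1a moved to -0.33 (adjusted p = 0.387).

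**Figure D2:**
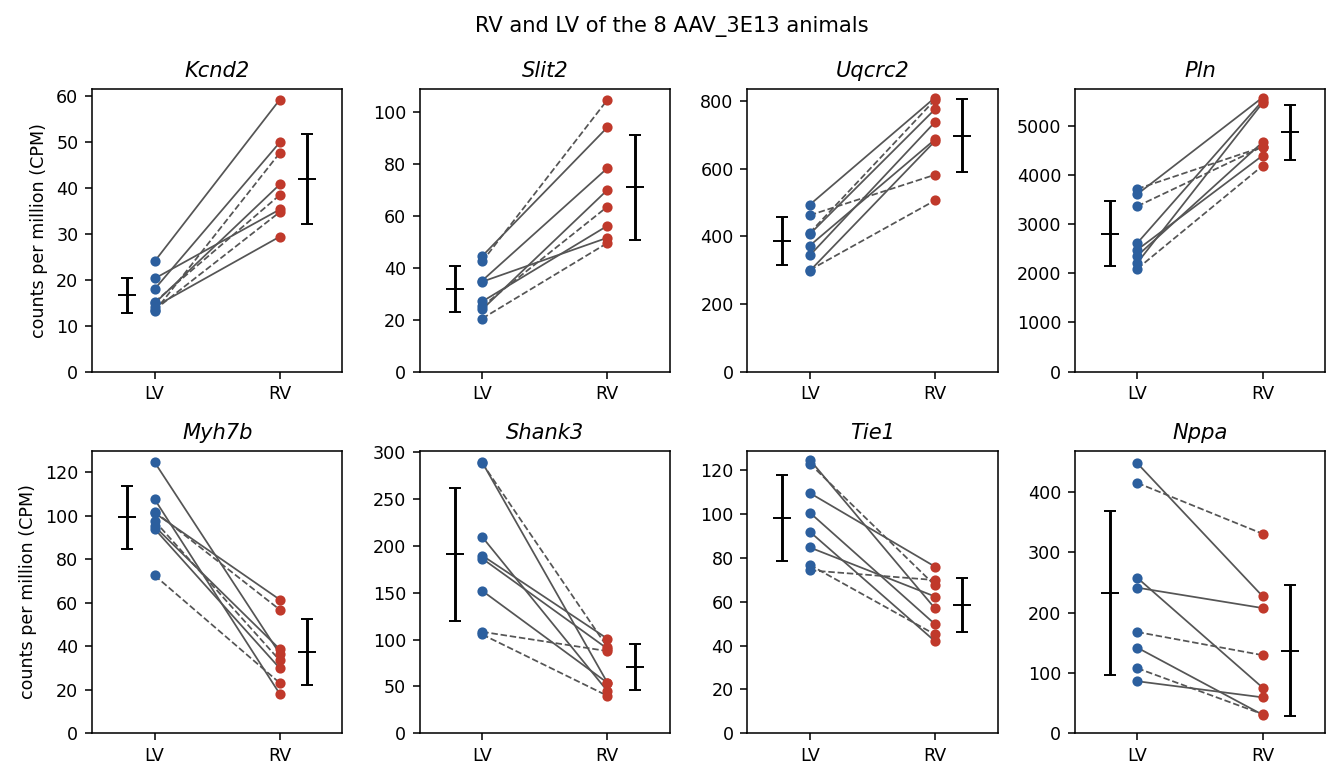
CPM of 8 genes in LV and RV of the 8 AAV_3E13 animals, with a line for each animal (solid for 5 animals numbered in the 2000s, dashed for 3 numbered in the 5000s) and black bars for mean ± SD. Kcnd2, Slit2, Uqcrc2 and Pln rise from LV to RV and Myh7b, Shank3, Tie1 and Nppa fall in every animal.

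The deleted and re-supplied gene was compared next. Pkp2 (GRCm39 chr16:16031144-16090586, forward strand) ran from 154 to 399 CPM in RV (median 297) and from 221 to 351 CPM in LV (median 318), with RV above LV in 3 of 8 animals. The log2 fold change was -0.07 ± 0.09 (SE, adjusted p = 0.619), so no difference between ventricles was found at this spread. Whether the gene's count includes reads from the vector's Pkp2 was not tested. In WT, Pkp2 was lower in RV, at -0.37 (adjusted p = 0.00393), and the AAV_1E14 value was -0.09 (adjusted p = 0.591).

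Among partners of Pkp2 in the desmosome, the desmosomal cadherins were higher in RV. Dsc2 (desmocollin-2) ran from 101 to 172 CPM in RV (median 115) and from 51.4 to 95 CPM in LV (median 73.3) and Dsg2 (desmoglein-2) ran from 170.1 to 269 CPM in RV (median 187) and from 101 to 169 CPM in LV (median 117). Neither overlapped between ventricles, and the log2 fold changes were 0.79 ± 0.08 (SE, adjusted p = 0.000458) and 0.69 ± 0.10 (SE, adjusted p = 0.00135). Dsp (desmoplakin, which ties the plaque to desmin) differed by 0.25 ± 0.10 (SE, adjusted p = 0.109) and Jup (plakoglobin) by -0.22 ± 0.08 (SE, adjusted p = 0.079), neither past the threshold. Dsp passed in DESeq2 (0.26, adjusted p = 0.0371) and, in edgeR, without animal PKP2_m3e13_5759 (0.33, adjusted p = 0.018). That animal had Dsp at 1924 CPM in RV and 2397 CPM in LV. Dsp also passed in the animals numbered in the 2000s (0.36, adjusted p = 0.0379, edgeR), and the other alternatives left it uncalled. Of the 9 desmosome genes tested, 3 were higher in RV and none lower. Gja1 (connexin 43, the main ventricular gap junction protein) ran from 567 to 997 CPM in RV (median 798) and from 371 to 642 CPM in LV (median 535), higher in 8 of 8 animals by 0.64 ± 0.09 (SE, adjusted p = 0.000816), and Cdh2 (N-cadherin of the adherens junction) differed by 0.46 ± 0.10 (SE, adjusted p = 0.00939). Of 17 gap junction and intercalated disc genes, 6 were higher and none lower. WT values had the other sign, -0.42 for Gja1 and -0.61 for Cdh2, both called. Gja5 (connexin 40 of the conduction system) differed by -0.15 ± 0.16 (SE, adjusted p = 0.57).

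Most nuclear genes of oxidative phosphorylation, which encode the respiratory chain and ATP synthase, were higher in RV. Of 50 nuclear oxidative phosphorylation genes, 30 were higher in RV and none lower, with a median log2 fold change of 0.44, against -0.03 over all genes tested. Uqcrc2, a core subunit of complex III (GRCm39 chr7:120233976-120260035, forward strand), ran from 506 to 810.2 CPM in RV (median 712) and from 298 to 494 CPM in LV (median 389). No LV library reached the lowest RV library, and the change was 0.85 ± 0.09 (SE, adjusted p = 0.000465). Atp5c1 of the ATP synthase, Ndufb5 of complex I and Sdhb of complex II differed by 0.81 ± 0.09 (SE, adjusted p = 0.000511), 0.70 ± 0.08 (SE, adjusted p = 0.000592) and 0.60 ± 0.08 (SE, adjusted p = 0.00108). Of the 13 genes encoded in mitochondrial DNA, 2 were higher and none lower when they were kept in the test, with a median of -0.04. Their share of all counts was 29.5% ± 3.06 (SD, n = 8) in RV and 29.9% ± 6.06 in LV, higher in RV in 4 of 8 animals (exact two-sided paired permutation test, p = 0.891, smallest possible p = 0.00781).

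Fuel-handling genes followed the same direction. Of 35 genes of fatty acid uptake and oxidation, 20 were higher and 2 lower in RV (median 0.43), among them Decr1 and Hadhb of beta-oxidation, Etfdh, which passes electrons from it to ubiquinone, and Pdk4, the kinase that holds back pyruvate oxidation. Decr1 ran from 193 to 363 CPM in RV (median 259) and from 100.1 to 197 CPM in LV (median 135), a change of 0.89 ± 0.09 (SE, adjusted p = 0.000454). Etfdh, Pdk4 and Hadhb differed by 0.68, 0.69 and 0.60. Branched-chain amino acid breakdown had 15 of 22 genes higher and none lower (median 0.45). Its leading members were Aldh6a1 of valine breakdown, from 219 to 302 CPM in RV (median 244) and from 117 to 179.5 CPM in LV (median 130.0), and Ppm1k, the phosphatase that activates the branched-chain ketoacid dehydrogenase, from 240.4 to 384 CPM in RV (median 264) and from 124 to 213 CPM in LV (median 137). Neither overlapped between ventricles, with changes of 0.85 ± 0.09 (SE, adjusted p = 0.000454) and 0.86 ± 0.10 (SE, adjusted p = 0.000584), and Hibadh and Pccb differed by 0.77 and 0.56. Of 26 genes of glycolysis and glucose uptake, 9 were higher and 1 lower, with 0.58 for Ldha (lactate dehydrogenase) and 0.54 for Pdk1. The list medians within single animals ran from -0.01 to 0.77 for oxidative phosphorylation, from 0.12 to 0.87 for fatty acids and from 0.05 to 0.87 for branched-chain amino acids. Ventricular cardiomyocyte markers moved the same way, with 7 of 16 higher, none lower and a median of 0.28, and their summed level had a median of 145711 CPM in RV and 125562 CPM in LV. Their part in the metabolic and calcium cycling differences was not tested.

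Of 21 calcium handling genes, 9 were higher in RV and 1 lower. Atp2a2 (SERCA2, the sarcoplasmic reticulum calcium pump) ran from 7711 to 12835 CPM in RV (median 10237) and from 5804 to 8333 CPM in LV (median 6507), higher in 8 of 8 animals by 0.61 ± 0.10 (SE, adjusted p = 0.00175). Its inhibitor Pln (phospholamban) ran from 4195 to 5587 CPM in RV (median 4629) and from 2098 to 3724 CPM in LV (median 2553), without overlap, and differed by 0.81 ± 0.11 (SE, adjusted p = 0.00111). Srl (sarcalumenin) and Trdn (triadin) of the same membrane differed by 0.81 and 0.71, again without overlap. Of 29 voltage-gated channel genes, 6 were higher and 1 lower, and with an offset for each library's dependence on transcript GC content these counts were 14 and 0. Most of the channel genes did not pass the test without that offset. Kcnj2 and Kcnj3 (inward rectifier potassium channels) and Cacna2d1 (a calcium channel subunit) differed by 0.83 ± 0.10 (SE, adjusted p = 0.000604), 0.95 ± 0.11 (SE, adjusted p = 0.000584) and 0.77 ± 0.08 (SE, adjusted p = 0.000454). Hcn4, a pacemaker channel, was 0.24 ± 0.20 (SE, adjusted p = 0.423), which did not pass the test. The muscarinic receptor Chrm2 and Corin, the protease that activates natriuretic peptides, differed by 0.83 ± 0.11 (SE, adjusted p = 0.000732) and 0.63 ± 0.07 (SE, adjusted p = 0.000534), both without overlap.

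The contractile apparatus was mixed. Of 14 thick filament genes, 4 were higher and 2 lower in RV, of 15 thin filament genes 6 and 3, and of 20 titin and Z-disc genes 5 and 2. Tnni3 (cardiac troponin I) and Myl2 (the ventricular regulatory light chain) differed by 0.61 ± 0.10 (SE, adjusted p = 0.00217) and 0.40 ± 0.09 (SE, adjusted p = 0.00949). Fhl2 and Myoz2 of the Z-disc differed by 0.56 and 0.58, and Fabp3, the heart fatty acid binding protein, by 0.83. Tpm2 (beta-tropomyosin) ran from 10.7 to 21.3 CPM in RV (median 13.6) and from 23.5 to 28.8 CPM in LV (median 25.8), lower in RV without overlap, at -0.88 ± 0.13 (SE, adjusted p = 0.00134). Myh6, the adult alpha myosin heavy chain, did not pass, at 0.09 ± 0.11 (SE, adjusted p = 0.582). It passed with the effective length offset, at 0.52 (adjusted p = 0.0129), and with the GC content offset, at 0.36 (adjusted p = 0.00793). It also passed by limma on log2(TPM + 1), at 0.59 (adjusted p = 0.0152), and the other alternatives did not call Myh6. Its fetal and stress counterpart Myh7 ran from 653 to 4914 CPM in RV (median 3192) and from 1166 to 6376 CPM in LV (median 3803), lower in RV in 7 of 8 animals, at -0.67 ± 0.15 (SE, adjusted p = 0.00789), and in WT at -1.02 (adjusted p = 0.000112). With the GC content offset it was -0.40 (adjusted p = 0.114), and without pairing by animal -0.56 (adjusted p = 0.332).

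Genes that the study followed as signs of heart failure and fibrosis were mixed too. Nppa (atrial natriuretic peptide) ran from 30.8 to 331 CPM in RV (median 103) and from 86.3 to 448 CPM in LV (median 205), lower in RV in 8 of 8 animals, at -1.01 ± 0.22 (SE, adjusted p = 0.00851), though the ranges overlapped widely. Without the pairing by animal the change of Nppa was -0.78 (adjusted p = 0.262). Nppb (brain natriuretic peptide) ran from 52.4 to 233 CPM in RV (median 122) and from 68.5 to 174 CPM in LV (median 108) and did not pass, at 0.08 ± 0.16 (SE, adjusted p = 0.752). In WT, Nppb was lower in RV, at -1.92 (adjusted p = 1.22e-05). Col1a1 (collagen I) was lower in RV in 7 of 8 animals, at -0.64 ± 0.16 (SE, adjusted p = 0.0165), and the GC content offset gave -0.26 (adjusted p = 0.393). Col3a1 (collagen III), Timp1 (a protease inhibitor) and Postn (periostin) were -0.06 ± 0.21 (SE, adjusted p = 0.863), 0.09 ± 0.29 (SE, adjusted p = 0.865) and 0.17 ± 0.22 (SE, adjusted p = 0.637). Without animal PKP2_m3e13_2047 the change of Col3a1 was 0.096, and without animal PKP2_m3e13_2048 that of Timp1 was -0.17, neither called. Of 14 cardiac stress markers 2 were lower and none higher in RV.

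Basement membrane collagens led the matrix genes towards LV. Of 32 matrix genes, 7 were lower in RV and none higher, and with the GC content offset 1 was lower. Col4a2, a basement membrane collagen, ran from 157 to 246 CPM in RV (median 177) and from 250.4 to 533 CPM in LV (median 329), without overlap, and differed by -0.90 ± 0.12 (SE, adjusted p = 0.00072), or -0.42 (adjusted p = 0.0211) with the offset. Col4a1 and Col5a3 differed by -0.68 ± 0.10 (SE, adjusted p = 0.00108) and -0.74 ± 0.14 (SE, adjusted p = 0.00335), and neither passed with the offset. Of 20 activated fibroblast genes 3 were lower and none higher, and of 16 resting fibroblast genes 2 were higher and 1 lower. Summed activated fibroblast markers ran from 826 to 1795 CPM in RV and from 933 to 1844 CPM in LV.

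Most genes of vessel endothelium were lower in RV. Of 20 capillary and arterial endothelium genes, 14 were lower in RV and 1 (Vwf, von Willebrand factor) was higher, with a median of -0.39 and medians within single animals from -0.62 to -0.04. All 20 were detected, and their summed level ran from 2173 to 2893 CPM in RV and from 2656 to 3846 CPM in LV. Tie1, an orphan receptor of the angiopoietin system (GRCm39 chr4:118328385-118347261, reverse strand), ran from 42 to 76 CPM in RV (median 59.6) and from 74.3 to 125 CPM in LV (median 96.2), lower in RV in 8 of 8 animals, at -0.76 ± 0.12 (SE, adjusted p = 0.00163). Eng (endoglin), Esam (an endothelial adhesion molecule) and Kdr (VEGF receptor 2) differed by -0.51 ± 0.08 (SE, adjusted p = 0.00187), -0.60 ± 0.11 (SE, adjusted p = 0.00397) and -0.49 ± 0.09 (SE, adjusted p = 0.0037). The 12 endocardial and lymphatic genes split, with 2 higher and 2 lower, and Npr3, the natriuretic peptide clearance receptor found in endocardium, was higher in RV in 8 of 8 animals by 0.71 ± 0.14 (SE, adjusted p = 0.004). Of 17 smooth muscle and pericyte genes, 1 was higher and 2 lower. Smtn (smoothelin) and Notch3 (a mural cell receptor) were lower, at -0.77 ± 0.11 (SE, adjusted p = 0.00101) and -0.60 ± 0.13 (SE, adjusted p = 0.00732). That list's summed level was higher in RV, from 7239 to 8687 CPM against 4538 to 7150 CPM in LV, although its median log2 fold change was -0.36. The list holds Pln, which cardiomyocytes also express. Pln alone ran from 4195 to 5587 CPM in RV and from 2098 to 3724 CPM in LV, a large part of the sum.

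All interferon-stimulated and immediate early genes that passed the test were higher in LV. Of 33 interferon-stimulated genes, 11 were lower in RV and none higher (median -0.42), and with the offset for GC content 14 were lower. Oas2 and Oasl2, which belong to the oligoadenylate synthetase family that senses double-stranded RNA, differed by -0.74 ± 0.14 (SE, adjusted p = 0.00346) and -0.60 ± 0.10 (SE, adjusted p = 0.00255). Stat2 and Irf9, which are subunits of the transcription factor ISGF3, differed by -0.52 ± 0.12 (SE, adjusted p = 0.00957) and -0.34 ± 0.08 (SE, adjusted p = 0.0117). Medians within single animals ran from -0.80 to -0.05. Of 21 immediate early genes 10 were lower in RV and none higher (median -0.41), and with the offset 4 were lower. Klf4 ran from 21.5 to 41.7 CPM in RV (median 26.1) and from 42.2 to 76.2 CPM in LV (median 53.8), without overlap, and differed by -0.94 ± 0.14 (SE, adjusted p = 0.00145), and Klf2, Egr1 and Zfp36 differed by -0.78, -0.82 and -1.28. Macrophage genes did not follow, with 1 of 25 higher and none lower. Lymphocyte markers were scarce, and 5 of 20 could be tested.

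Among signalling and patterning genes, 4 of 18 circadian clock genes were lower in RV and none higher (median -0.10). They included the period genes, at -0.78 for Per1, -0.60 for Per2 and -0.40 for Per3. Per1 depended on the length correction, since its change with an effective length offset was 0.00481 (adjusted p = 0.982). The call of Per3 ended with the GC content offset, by TPM, with the length covariate and without pairing, and that of Per2 without pairing. With the GC content offset 2 clock genes were lower and 1 higher (median -0.0091), and by TPM the list median was 0.010. Of 30 semaphorin, ephrin and slit genes 4 were higher, with Slit2, and 12 lower. Plxnd1 and Nrp2, receptors of semaphorins on endothelium, and Ephb4, a venous ephrin receptor, differed by -0.87 ± 0.11 (SE, adjusted p = 0.00067), -0.47 ± 0.07 (SE, adjusted p = 0.00173) and -0.58 ± 0.10 (SE, adjusted p = 0.002). In TGF-beta signalling, the pseudoreceptor Bambi was higher by 1.01 ± 0.10 (SE, adjusted p = 0.000454), and Ltbp4, which binds latent TGF-beta, and the ligand Bmp4 were lower, at -0.72 ± 0.12 (SE, adjusted p = 0.00238) and -0.72 ± 0.12 (SE, adjusted p = 0.00207). Wnt5a, a non-canonical Wnt ligand, was higher by 0.80 ± 0.13 (SE, adjusted p = 0.00186). Of 25 chamber patterning factors 2 were higher and 3 lower. Tbx20 was higher by 0.51 ± 0.08 (SE, adjusted p = 0.00175), and Tbx2 and Tbx3, repressors of the working myocardium programme, were lower, at -0.97 ± 0.17 (SE, adjusted p = 0.00268) and -0.53 ± 0.11 (SE, adjusted p = 0.00683). Tbx5, known from the left side of the developing heart, Irx4, a ventricular factor, and Hand2, known from the developing RV, did not pass, at 0.23 ± 0.14 (SE, adjusted p = 0.266), -0.13 ± 0.15 (SE, adjusted p = 0.566) and -0.22 ± 0.16 (SE, adjusted p = 0.359). The atrial light chain Myl4 was -0.47 ± 0.64 (SE, adjusted p = 0.646). In the remaining lists, higher and lower calls numbered 4 and 7 of 26 TGF-beta signalling genes, 2 and 3 of 22 Wnt genes, 4 and 0 of 21 heat shock genes, 0 and 2 of 18 integrated stress response genes, 4 and 1 of 42 cytosolic ribosomal protein genes, 2 and 1 of 20 cell division genes 5 and 5 of 25 natriuretic, adrenergic, angiotensin and endothelin genes and 2 and 0 of 10 Schwann cell and nerve genes. Of the lists of other cell types they numbered 0 and 2 of 8 atrial, 1 and 1 of 11 conduction system, 1 and 1 of 6 valve, 0 and 1 of 6 epicardial, 1 and 1 of 10 adipocyte, 0 and 1 of 5 lymphocyte, 0 and 0 of 4 neutrophil and mast cell and 0 and 0 of 3 erythroid genes.

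The next comparison set these differences beside those of other groups. In WT hearts, 31.4% of 12970 genes were called between ventricles (14.7% higher and 16.7% lower in RV), and most genes called in AAV_3E13 pointed the other way there. Of 2996 called genes that were also tested in WT, 390 had the same sign, and among those called in both groups 82 had the same sign and 1599 the opposite one. In AAV_1E14, with 6.99% of 12947 genes called (3.44% higher and 3.55% lower in RV), 2866 of 2991 had the same sign, and 723 were called in both with the same sign and 0 with the opposite sign. These contrasts share no library. In AAV_1E14_2.5wk (6 animals) 0.226% of genes were called (0.181% higher and 0.0452% lower), and in cKO (4 animals) 0.00726%, 1 gene. Shares called depend on the number of animals, so these low shares do not show that the ventricles were alike there.

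**Figure D3:**
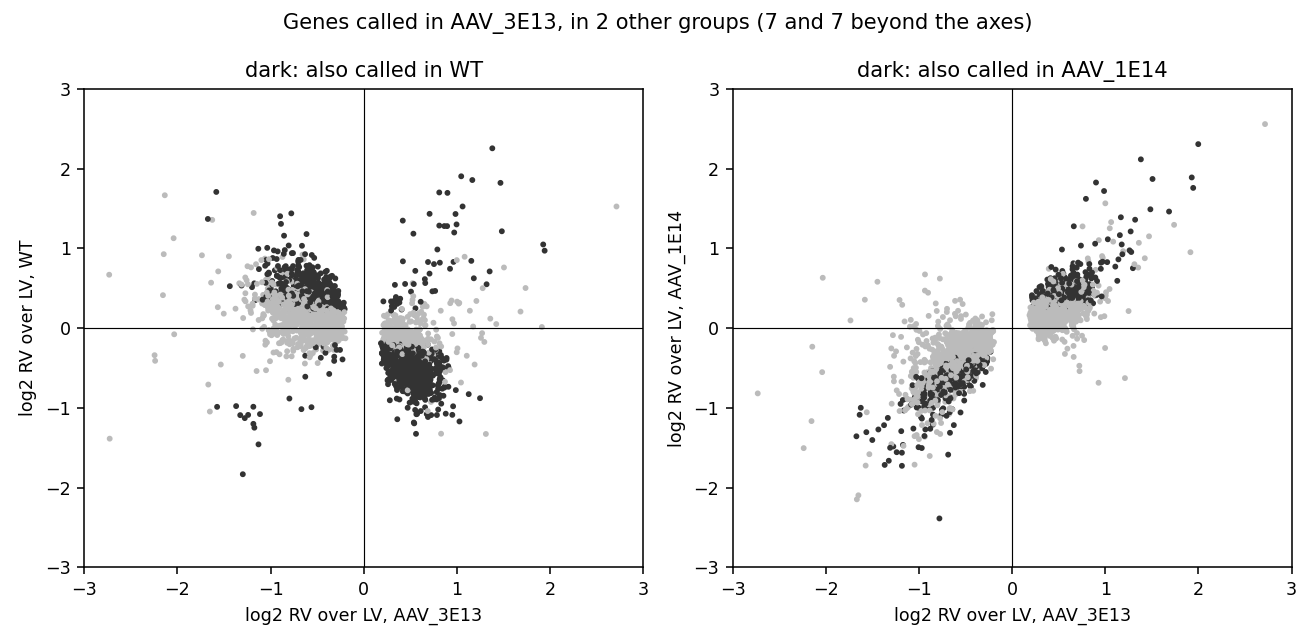
Log2 fold change of RV over LV of genes called in AAV_3E13 (horizontal axis) against the same change in WT (left) and in AAV_1E14 (right), with genes also called in the other group in dark grey. In WT 1599 dark genes lie in the quadrants of opposite sign and 82 in those of the same sign, and in AAV_1E14 all 723 have the same sign.

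The difference between groups was tested itself, as the RV to LV change in AAV_3E13 minus that in WT. It was called for 2750 genes that were more positive in AAV_3E13 (19.7%) and for 2814 that were more negative (20.1%), 39.8% of 13983 tested in all. With the mean relative effective length of a library as a covariate 4310 were called, and 2974 of the 5564 were called again in the same direction. Of 50 oxidative phosphorylation genes, 33 were more positive and 1 more negative, with list medians of 0.44 in AAV_3E13, -0.29 in WT and 0.23 in AAV_1E14. Of 20 capillary and arterial endothelium genes, 18 were more negative and none more positive, with medians of -0.39, 0.40 and -0.28. Calcium handling had 14 of 21 more positive (medians 0.18, -0.40 and 0.09), and interferon-stimulated genes had 16 of 33 more negative (medians -0.42, 0.16 and -0.35). Pln, for one, differed by 0.81 in AAV_3E13 and by -0.69 in WT, and the tested difference was 1.51 ± 0.14 (SE, adjusted p = 3.50e-07).

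**Figure D4:**
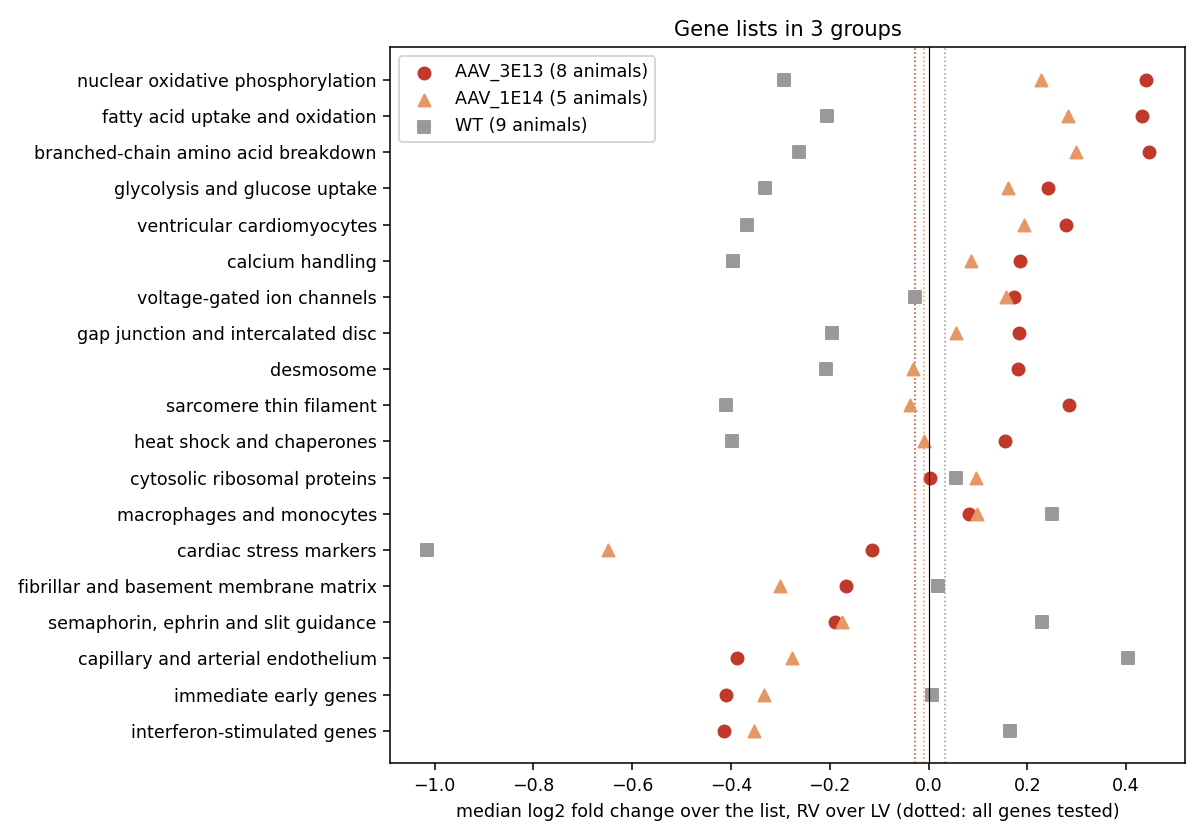
Median log2 fold change of RV over LV over the tested genes of 19 lists in AAV_3E13 (circles), AAV_1E14 (triangles) and WT (squares), with dotted lines at the medians over all genes tested. Metabolic and calcium handling lists lie to the right in AAV_3E13 and to the left in WT, and the endothelial list lies at -0.39 in AAV_3E13 and at 0.40 in WT.

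The genes with the largest difference from WT were mostly read unevenly between libraries. Those more positive in AAV_3E13 were Fabp3-ps1, Zfpm2, Rap1gap2, Higd1a, Rfc1, Nnt, Hist2h2aa2 and Tpt1-ps3, and those more negative were Hist2h2aa1, Taf4a, Hmgxb3, Mdh1, BB218582, Sipa1, Trip10 and Slc26a10. Hist2h2aa1 and Hist2h2aa2 are near-identical histone H2A copies, which an estimate of shared reads can split in different ways, and their changes in AAV_3E13 were -5.81 ± 1.11 (SE, adjusted p = 0.00473) and 0.95 ± 0.32 (SE, adjusted p = 0.055). Fitted changes of genes at 0 in many libraries depend on the prior count and are no bounds. Rap1gap2 ran from 0 to 47.4 CPM in RV (median 11.7) and from 0 to 5.46 CPM in LV (median 0), and Taf4a from 0 to 20.5 CPM in RV (median 0.756) and from 0 to 18.3 CPM in LV (median 6.23). Nnt, the mitochondrial transhydrogenase, ran from 72.7 to 277 CPM in RV (median 202) and from 31.8 to 225 CPM in LV (median 72.8) and differed by 1.19 ± 0.42 (SE, adjusted p = 0.0612) in AAV_3E13.

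Against AAV_1E14, no gene passed the test of the difference in edgeR out of 14205 (0.0% called), with 845 at an unadjusted p under 0.05, and DESeq2 called 7. A difference that misses the threshold with 8 and 5 animals does not show that the doses acted alike. Side by side, Nppb was 0.08 in AAV_3E13 and -1.20 in AAV_1E14 (adjusted p of the latter = 0.0228), and the tested difference was 1.29 (adjusted p = 0.701).

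Transcript GC content moved with these differences. In AAV_3E13 the median log2 fold change was 0.13 in the lowest decile of genes by GC content, where 260 were called higher and 20 lower, and -0.37 in the highest decile, where 14 were higher and 377 lower. In WT the same deciles had medians of -0.06 and 0.17, and in AAV_1E14 0.06 and -0.23. The medians were 0.11 and -0.20 in AAV_1E14_2.5wk, and -0.14 and 0.22 in cKO. The slope of a library's levels on GC content was taken in log2 per 10 percentage points. In AAV_3E13 it was -0.17 ± 0.16 (SD, n = 8) in RV and 0.10 ± 0.20 in LV (exact two-sided paired permutation test, p = 0.0312, adjusted p over 7 library measures = 0.109). In WT total counts were lower in RV in 9 of 9 animals, by 2.45 M on average (exact two-sided paired permutation test, p = 0.00391, the smallest possible). The relative effective length was higher in RV in 9 of 9 WT animals and the mitochondrially encoded share was 29.4% in RV and 35.6% in LV on average, values that stand beside every difference from WT given here and whose part was not tested. With each library's smooth dependence on GC content taken out as an offset, 1670 genes (13.3%) were higher and 1154 (9.17%) lower of 12584 (22.4% in all), and of 2918 called genes with a GC value 2067 were called again in the same direction and 23 changed sign. The metabolic and endothelial lists kept their direction, with medians of 0.43 for oxidative phosphorylation and -0.33 for endothelium. Named genes whose call ended with the offset were Col1a1, Myh7, Fam134b, Smarcd3, Fes, Cacna1a, Tpm2, Klf2, Egr1, Col4a1, Col5a3, Per3, Tbx2 and Notch3, and Myh6, Hcn4 and Hist2h2aa2 passed with it, all 3 towards RV. The part of GC content in the results above was not tested beyond this offset.

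**Figure D5:**
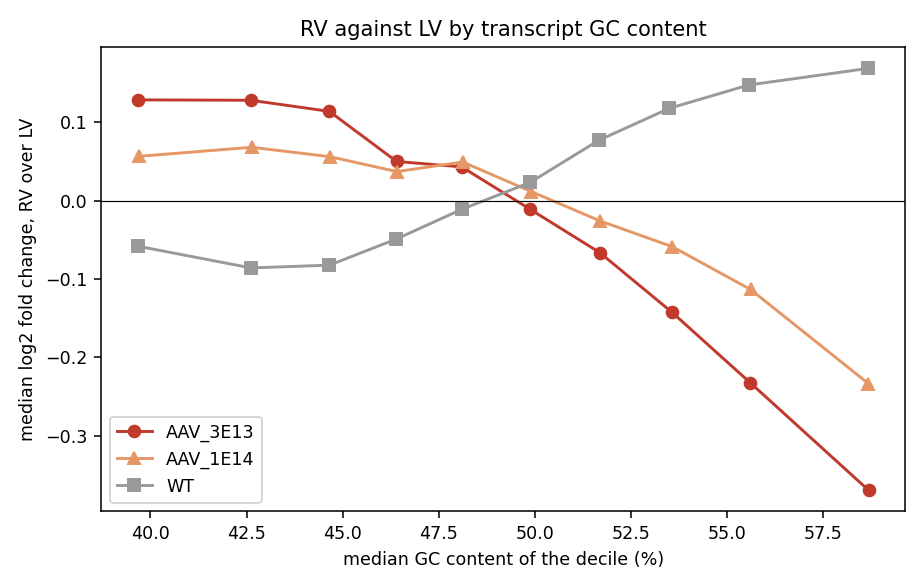
Median log2 fold change of RV over LV (vertical axis) in deciles of genes by transcript GC content (horizontal axis, percent) for AAV_3E13, AAV_1E14 and WT. The line of AAV_3E13 falls from 0.13 to -0.37, and that of WT goes from -0.06 to 0.17.

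The animals carried numbers in the 2000s (5) or in the 5000s (3), and the labels do not say what the numbers mark. Within the 5 animals of the 2000s, 1330 genes were higher in RV and 1084 lower. Within the 3 of the 5000s, 1 was called, and 1054 had an unadjusted p under 0.05. Of 2407 genes called in the 2000s and tested in the 5000s, 2320 (96.4%) had the same sign there, against 72.1% of all genes tested in both. Their median log2 fold changes were 0.56 and 0.30 for genes higher in RV and -0.65 and -0.37 for genes lower in RV, in the 2000s and 5000s in that order.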

How the data were processed

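The data were bulk RNA sequencing of right and left ventricle from the same animals, paired by the animal number in the labels. Per the methods of the study the authors trimmed reads with fastp, quantified them with Salmon 1.8.0 against GRCm39 with corrections for sequence, GC and position bias, and summed transcripts to genes. The deposited estimated counts (not normalized) were rounded to whole numbers, which changed no library's total by more than 5.24e-04%. TPM and effective length (score) tables deposited by the authors served for alternatives. Labels call the RNA polyA, whereas the kit described depletes ribosomal RNA, so the selection is uncertain. A row without a gene name (at most 0.00136% of counts) and mitochondrially encoded genes were left out.

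Genes were filtered with filterByExpr, scaled by TMM and tested with edgeR 4.0.16 (quasi-likelihood, animal as block, Benjamini-Hochberg threshold 0.05). SE is the log2 fold change over the square root of F. The difference between groups was tested as an interaction. CPM used TMM factors over all libraries. The same-animal deviations correlated between 0.0487 and 0.202 (median 0.139, 6 of 8 pairs over 0.1), against a median of -0.018 with other animals. An RV library correlated best with the LV library of its own animal in 4 of 8 animals. Replicates were separate animals. No libraries were duplicates.

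Members, lists and alternatives were chosen with earlier results of these data known. Named genes were the deleted gene and 5 genes the study followed by PCR, the 12 largest and 12 smallest changes among called genes of at least 5 CPM with the same direction in 8 of 8 animals, the 8 largest and 8 smallest differences from WT, up to 4 called members of each list by p, and 22 fixed genes, and a few genes that this rule names are not reported here. Gene symbols were matched to the GENCODE annotation of GRCm39 for positions and for the GC content of the longest transcript. Of 39152 symbols, 33124 matched directly and 1415 by another symbol of the same gene, taken from RefSeq. The offset for GC content (a spline with 5 degrees of freedom) was added after seeing the data. Alternatives were RLE and upper-quartile scaling, DESeq2 1.42.0, limma 3.58.1 on log2(TPM + 1), other filters, length corrections, no pairing, left-out animals and animals by number series. Library measures were compared by an exact permutation test. Intervals of counting error are not given, since the spread between animals sets the precision.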

Additional observations from a re-analysis of the deposited data

Results flagged for a closer look

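In 236 groups of 8 libraries (118 named genes in each ventricle of AAV_3E13), 21 held a library at one end far from the rest by Dixon's rule, and chance flags about 1 in 20 groups. In LV these were the highest library for Hand2 (44.8 CPM), Irx4 (23.8), Gja5 (23.4), Dsp (2397), Myl4 (9.16), Rps2-ps10 (8.79), Oas2 (98.9), Stat2 (106) and Klf2 (105), and the lowest for Ldha (147). In RV they were the highest library for Gja5 (24.0 CPM), Myl4 (9.997), Wif1 (13.7), Sipa1 (16.7), Erdr1 (3.87), Hist2h2aa1 (36.7), Taf4a (20.5), Ppm1k (384), Tpm2 (21.3), Oasl2 (42.7) and Col4a2 (246). Hist2h2aa1 was at 0 in the other RV libraries.

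The change of RV over LV in AAV_3E13 minus that in WT passed the edgeR test (adjusted p under 0.05) for 99 of 118 named genes, and the values are log2 differences, positive where the RV was relatively higher in AAV_3E13. Genes that led towards RV in AAV_3E13 had 0.78 for Kcnd2, 0.89 for Ubxn10, 1.48 for Lrtm1, 1.39 for Pla2g5, 0.78 for Tmprss13 and 1.34 for Tnfrsf19. Chamber patterning factors and genes of Wnt and TGF-beta signalling had 0.93 for Wnt5a, 1.27 for Bambi, 0.99 for Tbx20, 0.71 for Tbx5, -1.28 for Tbx2, -0.55 for Tbx3 and -1.08 for Bmp4. Cell junction genes and Pkp2 had 0.31 for Pkp2, 1.07 for Gja1, 1.08 for Cdh2, 0.81 for Dsp, 0.91 for Dsg2 and 0.90 for Dsc2. Energy metabolism genes had 1.35 for Uqcrc2, 1.11 for Atp5c1, 1.18 for Ndufb5, 1.05 for Sdhb, 1.41 for Decr1, 1.09 for Etfdh, 0.91 for Pdk4, 1.04 for Hadhb, 1.51 for Aldh6a1, 1.26 for Ppm1k, 1.19 for Hibadh, 0.90 for Pccb, 0.92 for Ldha, 1.34 for Pdk1 and 1.79 for Fabp3.

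Calcium handling, excitability and receptor genes had 1.16 for Atp2a2, 1.51 for Pln, 1.39 for Srl, 1.24 for Trdn, 1.18 for Kcnj2, 1.04 for Kcnj3, 1.05 for Cacna2d1, 1.37 for Chrm2, 0.53 for Corin and 2.02 for Nppb. Sarcomere and Z-disc genes had 0.97 for Tnni3, 0.77 for Myl2, 1.00 for Fhl2, 1.03 for Myoz2, -0.69 for Tpm2 and -1.67 for Myh7b. Vessel, matrix and guidance genes had -1.15 for Tie1, -0.98 for Eng, -1.29 for Esam, -0.54 for Kdr, -1.16 for Plxnd1, -0.50 for Nrp2, -0.94 for Ephb4, -1.44 for Smtn, -1.04 for Notch3, -1.08 for Ltbp4, -0.53 for Col4a1, -0.70 for Col4a2 and -1.10 for Col5a3. Interferon, immediate early and clock genes had -1.12 for Oas2, -0.66 for Oasl2, -0.88 for Stat2, -0.58 for Irf9, -1.06 for Klf4, -0.87 for Klf2, -1.63 for Zfp36, -1.10 for Per1, -1.16 for Per2 and -1.03 for Per3.

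Genes led by size in either direction had 6.07 for Fabp3-ps1, 5.11 for Zfpm2, 4.03 for Rap1gap2, 2.64 for Higd1a, 2.60 for Rfc1, 2.50 for Nnt, 2.34 for Hist2h2aa2, 2.21 for Tpt1-ps3 and 2.13 for Fam134b, and towards the negative -9.47 for Hist2h2aa1, -6.37 for Taf4a, -6.07 for Hmgxb3, -4.56 for Mdh1, -3.88 for BB218582, -3.39 for Sipa1, -3.24 for Trip10, -3.18 for Slc26a10, -2.57 for Smarcd3, -3.02 for Fes, -2.34 for Ago1, -1.95 for Shank3, -1.82 for Gipc3, -2.27 for Lppr2, -1.61 for N4bp3, -1.90 for Cacna1a and -1.83 for Clcn1.

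Several of these calls depended on the processing. The call of Pkp2 ended without the pairing by animal, without a filter on low counts, with both length corrections and with the GC content offset, where the difference was 0.11 (adjusted p = 0.569, edgeR). It also ended when PKP2_m3e13_2029, PKP2_m3e13_2045, PKP2_m3e13_2047, PKP2_m3e13_2048, PKP2_m3e13_5759, PKP2_m3e13_5809 or WT_HBSS_5819 was left out, with differences from 0.28 to 0.32. With the GC content offset the difference was -0.0095 for Col4a1 (adjusted p = 0.967), -0.063 for Col4a2 (adjusted p = 0.763), -0.15 for Tpm2 (adjusted p = 0.748) and -0.20 for Klf2 (adjusted p = 0.411). The calls of Tbx2, Tbx3, Smarcd3, Trip10 and Slc26a10 ended with that offset too, so 10 of the 99 were lost with it. Without the pairing 11 were lost (Pkp2, Tmprss13, Smarcd3, Fes, Taf4a, Hmgxb3, Trip10, Slc26a10, Pdk4, Irf9 and Tbx3). With relative effective length as a covariate 28 were lost, and Slc26a10 changed sign. Those of Tmprss13, Smarcd3, Trip10, Slc26a10 and Tpm2 ended when single animals were left out.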

How the results depend on the processing

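The paired fit called 3004 genes between ventricles, and the fit with no replicate block called 2679 (1423 higher and 1256 lower), a change of less than 1.5 times. Without the block the calls of Nppa, Myh7, Fes, Ago1, Cacna1a, Hist2h2aa1, Slc26a10, Pdk4, Irf9, Per2, Per3 and Tbx3 ended. RLE, upper-quartile, DESeq2, both other filters, kept mitochondrial genes, both length corrections and the GC content offset gave from 2313 to 3184 calls. Leaving out single animals gave from 2037 (without PKP2_m3e13_2048) to 3203 (without PKP2_m3e13_5759). limma on log2(TPM + 1) called 1573 higher and 557 lower. The 3 animals of the 5000s gave 1 call (1 higher, 0 lower), a fit with fewer animals. The difference from WT ranged from 4310 to 5737 calls, 2974 of 5564 being shared when relative length was a covariate. Without animal WT_HBSS_5819 it was 5458. DESeq2 called 7 genes (5 more positive, 2 more negative) in the difference from AAV_1E14, and 0 passed in every other fit of it. The share of mitochondrially encoded transcripts was -0.362 points in RV minus LV by counts (exact p = 0.891) and 1.24 points by TPM (exact p = 0.711).

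Of named genes over all alternatives, 2256 values kept their side, 165 lost a call (92 of them in the 3 animals of the 5000s), 28 gained one and 23 changed sign, and the cause was not tested. Pkp2 was 0.020 by TPM. Nppb was -0.00525 in the 5000s. Col3a1 was 0.17 with the length offset, 0.24 by TPM, 0.020 in the 2000s and 0.013 with the GC offset. Timp1 was -0.010 with the length covariate. Hand2 was 0.18 with the GC offset, and Irx4 0.17, or 0.033 by TPM. Myh6 was -0.037 and Hcn4 -0.071 in the 5000s. Gja5 was 0.046 with the length covariate and 0.022 in the 5000s. Jup was 0.057 with the length offset, 0.13 by TPM and 0.093 with the GC offset. Per1 was 0.0048 with the length offset and 0.077 by TPM. Slc26a10 in the difference from WT was 0.18 with the length covariate, and 90 other values of named genes lost their call in that difference. With single animals left out, Nppb ran from -0.068 to 0.19, Col3a1 ran from -0.23 to 0.096 and Timp1 ran from -0.17 to 0.22. In addition 7 list medians moved by more than the spread between animals. Depth limits genes near 1 CPM, where 1 library can be at 0.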

Other observations

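The 42 genes called in the same direction in AAV_3E13, WT and AAV_1E14 held several that no list contained, and the genes named here were chosen after their values were seen. Sort1 (sortilin) had log2 fold changes of RV over LV of 0.74 in AAV_3E13, 0.46 in WT and 1.04 in AAV_1E14, and Ptgfr (the prostaglandin F receptor) had 0.66, 0.57 and 1.28 in the same order. Aox3 (an aldehyde oxidase), Rgs7 (a regulator of G protein signalling) and Kcna2 (a potassium channel) were also higher in RV, at 0.90, 0.99 and 0.71 in AAV_3E13 and at 1.70, 1.43 and 1.43 in WT. Vwf, of the endothelial list, was at 0.42 in AAV_3E13, 1.35 in WT and 0.77 in AAV_1E14, with mean levels of 219 CPM in RV and 169 CPM in LV of AAV_3E13. Of the 14 genes lower in RV in all 3 groups, 7 were the unnamed gene models Gm10717, Gm10718, Gm10719, Gm10721, Gm10800, Gm10801 and Gm11168. Whether these models share reads, and so repeat the same signal, was not tested. They had the lowest values of the 14, from -1.37 to -1.17 in AAV_3E13, with a mean of 558 CPM in LV and 207 CPM in RV for Gm10800, and no GC content value. The others included Ntn1 (netrin 1, of the guidance list), at -0.37, -0.57 and -0.55, and Pmepa1 (an inhibitor of TGF-beta signalling), at -0.32, -0.41 and -0.71. With the GC content offset in AAV_3E13, Sort1 and Vwf passed (adjusted p = 0.000586 and 0.000786, edgeR) and Ntn1 and Pmepa1 did not (adjusted p = 0.922 and 0.482).

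The unnamed gene model Gm28439 (GRCm39 chr1:24650616-24651491, reverse strand) was at 941 to 6599.6 CPM in RV and at a median of 0 CPM in LV of AAV_3E13, where the highest LV library had 1261 CPM. RV was higher in 8 of 8 animals, and the model was also called higher in RV in WT and AAV_1E14. Whether reads of Gm28439 are shared with other sequences was not tested, so its level is uncertain. Since most LV libraries were at 0, the fitted fold is not given.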
